A study of Homo sapiens with 18 samples.

Results

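The respiratory chain genes described here are the mRNAs of the 13 proteins encoded by mitochondrial DNA and of the nuclear-encoded subunits that assemble with them into the 5 complexes of oxidative phosphorylation. Members were taken from the count table by symbol: MT-ND, MT-CO, MT-CYB and MT-ATP for the mitochondrial set, and NDUFA, NDUFB, NDUFC, NDUFS, NDUFV, UQCR, COX4I, COX5, COX6, COX7, COX8, ATP5, the 4 SDH subunits and CYC1 for the nuclear set. Of 249 nuclear rows with such symbols, 151 named pseudogenes and 7 named NDUFAF assembly factors were dropped. Membership and complex follow the symbol alone. NDUFA4 is now placed in complex IV, and ATP5S, ATP5SL and COX7A2L are not subunits of the isolated enzymes, yet all count under their prefix. This left 104 members, of which 97 passed the low-count filter: all 13 mitochondrial genes and 84 of 91 nuclear genes, out of 14797 genes tested. Those not passing had between 0 and 82 counts over all 18 libraries. They were COX4I2, COX6A2, COX7A1, COX7B2 and COX8C, which are tissue-restricted isoforms, and ATP5L2 and ATP5J2LP.

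The libraries come from HepG2, a human liver tumour cell line, in 6 groups of 3. Cells received a vehicle (DMSO or ethanol, each at 0.1%), a small molecule at 10 µM (6N, 10CA or the compound labelled 6N-10CA), or the phospholipid DLPC (dilauroylphosphatidylcholine) at 100 µM. All groups were treated in charcoal-stripped serum, and the series title names LRH-1, a nuclear receptor of liver, as the target. No label pairs a compound with its vehicle or calls the replicates separate cultures. A p-value here therefore speaks for the spread among these 18 libraries, part or all of which may be technical.

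Electrons from NADH enter the chain at complex I and those from succinate at complex II; they pass through complexes III and IV to oxygen, and complex V uses the resulting proton gradient to make ATP. Mitochondrial DNA is transcribed from both strands into long polycistronic RNAs that are cut into mRNAs, so its genes share their transcription and differ mainly after it. MT-ND6 is encoded on the opposite strand from the other 12. Complex II is entirely nuclear-encoded. Nuclear subunit genes have separate promoters, many of them known to bind NRF1 and GABPA, the activators of respiratory gene transcription.

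A pair of mitochondrial mRNAs is bicistronic, which limits how far reads can be assigned. MT-ATP8 (chrM:8366-8572) and MT-ATP6 (chrM:8527-9207) share 46 bases on the same strand, so that 161 of the 207 bases of MT-ATP8 are its own. MT-ND4L (chrM:10470-10766) and MT-ND4 (chrM:10760-12137) share 7 bases. The sequences below, from GENCODE 29 transcripts on GRCh38, show the windows chrM:8497-8602 and chrM:10737-10789 on the plus strand, with the shared bases in capitals.
MT-ATP8/MT-ATP6: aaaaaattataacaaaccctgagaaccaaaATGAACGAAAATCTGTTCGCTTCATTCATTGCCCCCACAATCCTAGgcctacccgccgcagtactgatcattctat
MT-ND4L/MT-ND4: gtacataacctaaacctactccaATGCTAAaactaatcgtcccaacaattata

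Chromosome 1 carries a nuclear copy of a stretch of mitochondrial DNA, and its MTATP6P1 row held 33591 counts, or 20.6% of its sum with MT-ATP6 (19.8% to 21.8% across libraries). The copy (chr1:633696-634376) differs from MT-ATP6 at 10 of 681 bases, and 69 of the 582 possible reads of 100 bases would be identical in both. MTND2P28 took 5.16% of its sum with MT-ND2, and 5 other copies took under 0.4% of theirs. These shares did not rank as the identical reads did. MT-ND2 and MTND2P28 have 246 of 943 such reads in common. MT-CO1 and MTCO1P12 have 402 of 1443, while MTCO1P12 took 0.0191%. Where the counts of the copies come from was not tested. Adding MTATP6P1 to MT-ATP6 moved the log2 ratio of group means for 10CA against DMSO from -0.231 to -0.233. The windows chrM:8639-8718 and chr1:633808-633887, both on the plus strand, show 4 of the 10 differing bases, in capitals.
MT-ATP6: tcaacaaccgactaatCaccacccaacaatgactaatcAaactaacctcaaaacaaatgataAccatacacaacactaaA
MTATP6P1: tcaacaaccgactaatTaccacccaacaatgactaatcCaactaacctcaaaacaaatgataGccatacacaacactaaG

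Total counts ran from 28135967 to 34992442 per library. All 18 hepatocyte and HepG2 markers were detected, with a summed level of 67797 to 84448 CPM (counts scaled to the library total). Of 17 markers of stromal, endothelial and blood cells, 2 were at 0 in all libraries and 9 lay under 1 CPM; the sum of all 17 was 399.9 to 540.5 CPM, most of it LYZ. This sum was 451 to 466 CPM with DMSO, 399.9 to 433 CPM with 6N, 450.5 to 495 CPM with 10CA, 423 to 435 CPM with 6N-10CA, 471 to 521 CPM with ethanol and 474 to 540.5 CPM with DLPC, and its part in the results was not tested.

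By the median gene the mitochondrial mRNAs were the more abundant set, although the ranges overlapped, and the nuclear set was the larger in sum. On the scale of CPM per kilobase of merged protein-coding exons (RPKM), the median level was 340.6 for the 13 mitochondrial genes and 79.97 for the 84 nuclear genes. With all annotated exons as the length, chosen after seeing the data, the nuclear median was 50.9. The mitochondrial set took 0.391% to 0.517% of all counts in a library, and the nuclear set 1.40% to 1.55%.

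Among the mitochondrial mRNAs, the 3 catalytic core subunits of complex IV came first, with MT-CO2 at 825, MT-CO3 at 657 and MT-CO1 at 542 RPKM. The proton-pumping subunits of complex I followed, led by MT-ND4 at 388 and MT-ND2 at 352 RPKM. MT-CYB, the cytochrome b of complex III, stood at 347 RPKM, and MT-ATP6, the proton channel of complex V, at 340.6 RPKM. Below them came MT-ND5 at 265, MT-ND4L at 238, MT-ND1 at 217 and MT-ND6 at 215 RPKM. MT-ND3 at 65.9 and MT-ATP8 at 34.8 RPKM, which are short genes, were far below the rest. MT-ATP8 lies on 1 bicistronic mRNA with MT-ATP6, as MT-ND4L does with MT-ND4. The values within such a pair are therefore not levels of separate mRNAs, and how reads were assigned between them was not tested. MT-ND2, MT-CYB and MT-ATP6 lay closer to each other than the libraries did within each gene, where the highest exceeded the lowest by 1.34 to 1.44 times, and the same held for MT-ND1 and MT-ND6.

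Nuclear members spread over a wider range within each complex, as the plot of levels by complex and genome shows. The members assigned to complex I by symbol ran from NDUFS5 at 249 to NDUFA4L2 at 2.28 RPKM around a median of 72.1. NDUFA4L2 is a hypoxia-responsive relative of NDUFA4, and neither is an established subunit of complex I. In complex II, SDHA, the flavoprotein that oxidises succinate, was at 164 and the membrane anchor SDHC at 14.5 RPKM. Complex III ran from the core protein UQCRC1 at 304 to UQCRHL, a copy of UQCRH, at 0.202 RPKM, and complex IV from COX6A1, the ubiquitous isoform, at 638 to the testis isoform COX6B2 at 0.0834 RPKM. ATP5B, the catalytic beta subunit of complex V, was the highest of all members at 979.9 RPKM, above MT-CO2. Lengths are those of all merged coding isoforms, so genes with long unused exons are understated.

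**Figure D1:**
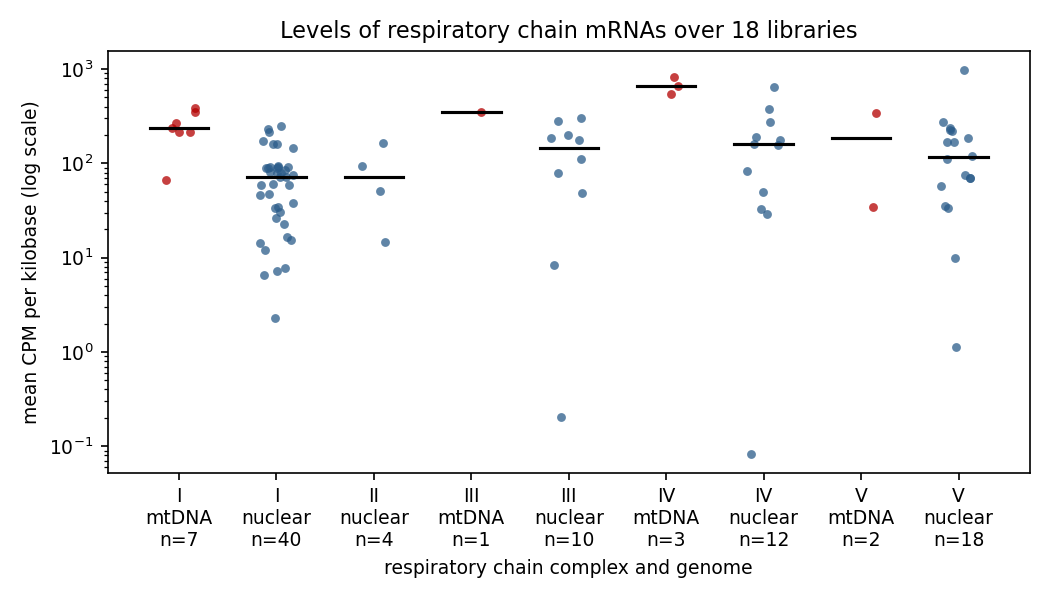
Mean CPM per kilobase over 18 libraries (log scale) for each of the 97 members, by complex and by the genome that encodes the gene; points are genes, horizontal lines are medians. The 3 mitochondrial mRNAs of complex IV sit highest of the mitochondrial set, with a median of 657. The nuclear members assigned to complex V by symbol run from 1.13 (ATP5S) to 979.9 (ATP5B).

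RefSeq promoters (GRCh38.p14, 250 bases upstream of the start) were found for 67 of the 84 nuclear members. The NRF1 motif (GCGC, any base, then TGCGC), searched on both strands, was present in 13 of them (19.4%), against 5.53% of 27305 promoters of the same length. The GABPA motif CCGGAAG was present in 16 (23.9%), against 8.82%, and either motif in 27 (40.3%), against 13.4%. The 27305 promoters were not limited to genes expressed here or matched for base content. The part of this in the shares was not tested. Matches that share bases count for both motifs, and 2 promoters, of SDHD and UQCR11, held both. NDUFA9, which had the smallest p of the nuclear members with 6N, is an example with an NRF1 match (in capitals; chr12:4648864-4649113, plus strand), and NDUFS7, the one with the smallest p with 10CA, an example with neither (chr19:1383657-1383906, plus strand). A match is a description of these letters and not of binding.
NDUFA9: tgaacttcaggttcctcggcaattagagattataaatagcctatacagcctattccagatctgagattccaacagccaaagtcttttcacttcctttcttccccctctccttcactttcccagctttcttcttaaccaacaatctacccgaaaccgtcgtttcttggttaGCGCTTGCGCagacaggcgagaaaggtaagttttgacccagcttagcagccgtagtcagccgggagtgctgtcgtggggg
NDUFS7: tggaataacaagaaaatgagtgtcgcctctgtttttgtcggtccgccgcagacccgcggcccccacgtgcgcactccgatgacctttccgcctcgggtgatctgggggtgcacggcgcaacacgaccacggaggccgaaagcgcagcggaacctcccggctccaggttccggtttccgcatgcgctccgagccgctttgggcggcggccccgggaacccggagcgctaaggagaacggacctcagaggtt

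Across groups, the mitochondrial share of counts was lowest with 10CA. It was 0.402% ± 0.013 (SD, n = 3) with 10CA, against 0.450% ± 0.020 with DMSO, 0.436% ± 0.015 with 6N and 0.425% ± 0.020 with 6N-10CA. The 3 libraries of 10CA stood at 0.416%, 0.400% and 0.391%, below all 3 of DMSO (0.470%, 0.430% and 0.450%) and all 3 of 6N (0.428%, 0.427% and 0.453%). The 6N-10CA libraries, at 0.445%, 0.426% and 0.404%, overlapped both 10CA and DMSO. Ethanol libraries were at 0.517%, 0.448% and 0.424%, and those of DLPC at 0.426%, 0.444% and 0.420%. The first ethanol library was the highest of all 18 and stood apart from the other two of its group.

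The nuclear share of each compound overlapped that of its vehicle. It ran from 1.40% to 1.46% with 10CA, 1.44% to 1.49% with DMSO, 1.44% to 1.55% with 6N and 1.45% to 1.51% with 6N-10CA. With ethanol it ran from 1.44% to 1.48%, and with DLPC from 1.41% to 1.45%. As a score that weights every gene equally, the mean log2 CPM over the set minus its mean over all libraries, the mitochondrial set was at -0.04, -0.15 and -0.17 in the 10CA libraries and at 0.16, -0.03 and 0.03 in those of DMSO. The nuclear score was at 0.02, -0.10 and -0.05 with 10CA and at 0.05, -0.04 and 0.01 with DMSO, so that these groups overlapped. The mitochondrial minus the nuclear score was -0.06, -0.05 and -0.12 with 10CA and 0.11, 0.01 and 0.01 with DMSO, without overlap. With 6N-10CA it was 0.004, -0.03 and -0.07, also without overlap with DMSO, whose lowest library was at 0.007. With 6N it was -0.09, -0.06 and 0.09, and with DLPC -0.02, 0.06 and -0.06. On this measure 10CA overlapped 6N, 6N-10CA and DLPC. No test was made of these set scores, since the sets were chosen with results known.

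**Figure D2:**
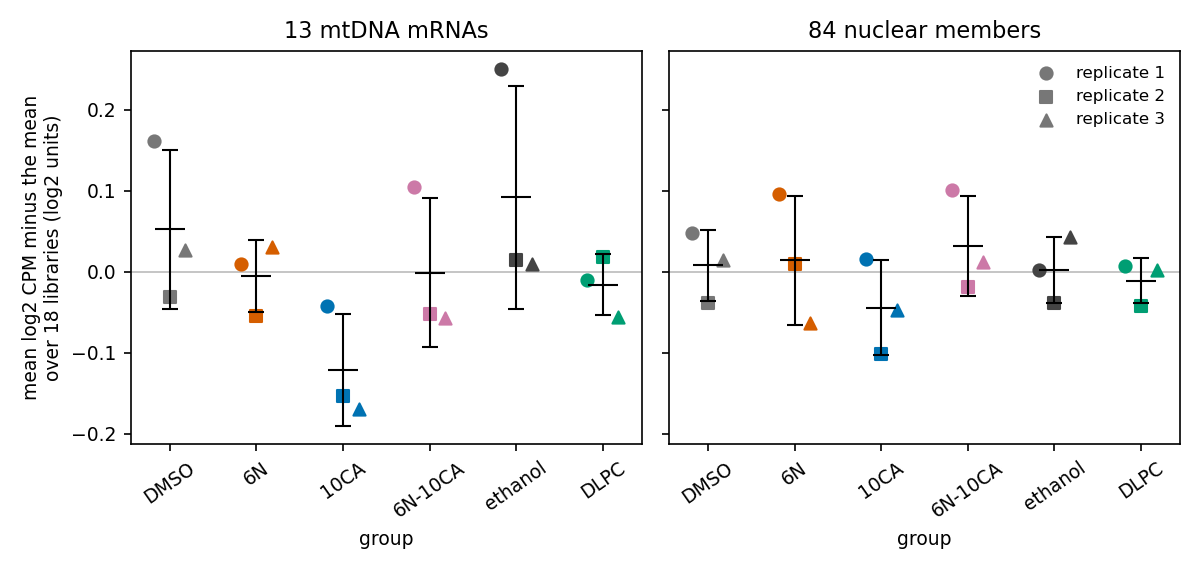
Mean log2 CPM of the 13 mitochondrial (left) and 84 nuclear (right) members minus the mean over 18 libraries, for each library by group; symbols mark the replicate number, and bars are the mean and SD of 3 libraries. On the left, 10CA replicates 3 and 2 lie lowest, at -0.17 and -0.15, and the first ethanol library highest, at 0.25. 10CA replicate 1, at -0.04, lies above 6N replicate 2 (-0.05), DLPC replicate 3 (-0.06) and 6N-10CA replicates 2 and 3 (-0.05 and -0.06).

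No single member passed the test of the main fit, which has no term for the replicate number, in any of the 8 comparisons made. With that number as a block, edgeR called 0 to 6 members per comparison, as given beside the calls over all genes in the closing sections. The test was edgeR's quasi-likelihood test, adjusted by the Benjamini-Hochberg method over 14797 genes, and 0 of 97 members had an adjusted p under 0.05 in each. The counts at an unadjusted p under 0.05 and those of DESeq2 and limma-voom are given with each comparison. Median widths of the 95% intervals on either side of a log2 fold change were 0.16 for mitochondrial and 0.12 for nuclear members.

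With 10CA, every mitochondrial mRNA had a negative log2 fold change against DMSO, from -0.07 (MT-ATP8) to -0.31 (MT-ND4L), with a median of -0.17, where 50.2% of all genes were below 0 and their median was -0.00057. The background of calls in this comparison was 0%, since edgeR called no gene at all. At an unadjusted p under 0.05 there were 7 of 13 mitochondrial and 4 of 84 nuclear members, against 6.98% of all genes. The groups did not overlap for 5 of 13 mitochondrial mRNAs, all lower with 10CA, against 6.3% of all genes. DESeq2 called 1 member, MT-CO3, where it called 0.0879% of all genes, and limma-voom called 0 members and 0% of all genes. The 13 mRNAs come from shared transcripts and are not independent of each other.

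MT-CO3, a core subunit of complex IV, was at 480.5, 472 and 432 CPM with 10CA and at 592, 537 and 547 CPM with DMSO. All 3 libraries of 10CA lay below all 3 of DMSO, and the log2 fold change was -0.28 ± 0.07 (SE, 95% interval -0.41 to -0.14). The adjusted p was 0.573 in edgeR and 0.0314 in DESeq2, and 0.0198 in edgeR with the replicate number as a block. MT-ND4L, a small membrane subunit of complex I, was at 68.3, 53.2 and 58.1 CPM against 85.3, 63.7 and 73.6 CPM in DMSO. These groups overlapped, although at each replicate number 10CA lay below DMSO, and the log2 fold change was -0.31 ± 0.10 (SE; edgeR adjusted p = 0.663). MT-ATP6 was at 217, 208 and 197 CPM against 266, 224 and 240.4 CPM, without overlap, with a log2 fold change of -0.23 ± 0.08 (SE; edgeR adjusted p = 0.663). MT-CO2, MT-CYB and MT-ND4 also lay below every DMSO library, with log2 fold changes of -0.13, -0.17 and -0.18. MT-ND2 was at 384, 329 and 321 CPM against 412, 381 and 367 CPM, with overlap. In the fit with the replicate number as a block, its log2 fold change was -0.17 (edgeR adjusted p = 0.0359). MT-CO1, the most counted of the mitochondrial mRNAs and the catalytic subunit of complex IV, had a log2 fold change of -0.07 (95% interval -0.19 to 0.06).

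Nuclear members with 10CA had a median log2 fold change of -0.06, with 63 of 84 below 0. Intervals lay within 0.5 of 0 for 12 mitochondrial and 80 nuclear members, against 74.5% of all genes. By complex the medians were -0.04 for I, -0.01 for II, -0.07 for III, -0.08 for IV and -0.04 for V. The groups did not overlap for 6 lower and 1 higher members, against 6.3% and 6.54% of all genes. NDUFS7, an iron-sulphur subunit of complex I, was at 102, 86.2 and 93.8 CPM against 102, 105 and 105 CPM in DMSO, with a log2 fold change of -0.15 ± 0.06 (SE; edgeR adjusted p = 0.679). NDUFA2, an accessory subunit of the same complex, was at 70.0, 62.6 and 62.1 CPM against 72.5, 69.3 and 72.8 CPM, with a log2 fold change of -0.14 ± 0.06 (SE; edgeR adjusted p = 0.679). The mitochondrial minus the nuclear median was -0.11. Without any 1 of the 6 libraries it ran from -0.15 to -0.09, and it was -0.18 with ethanol in place of DMSO. The nuclear median alone was less steady, at -0.03 without DMSO replicate 1 or 10CA replicate 2 or with ethanol in place of DMSO.

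**Figure D3:**
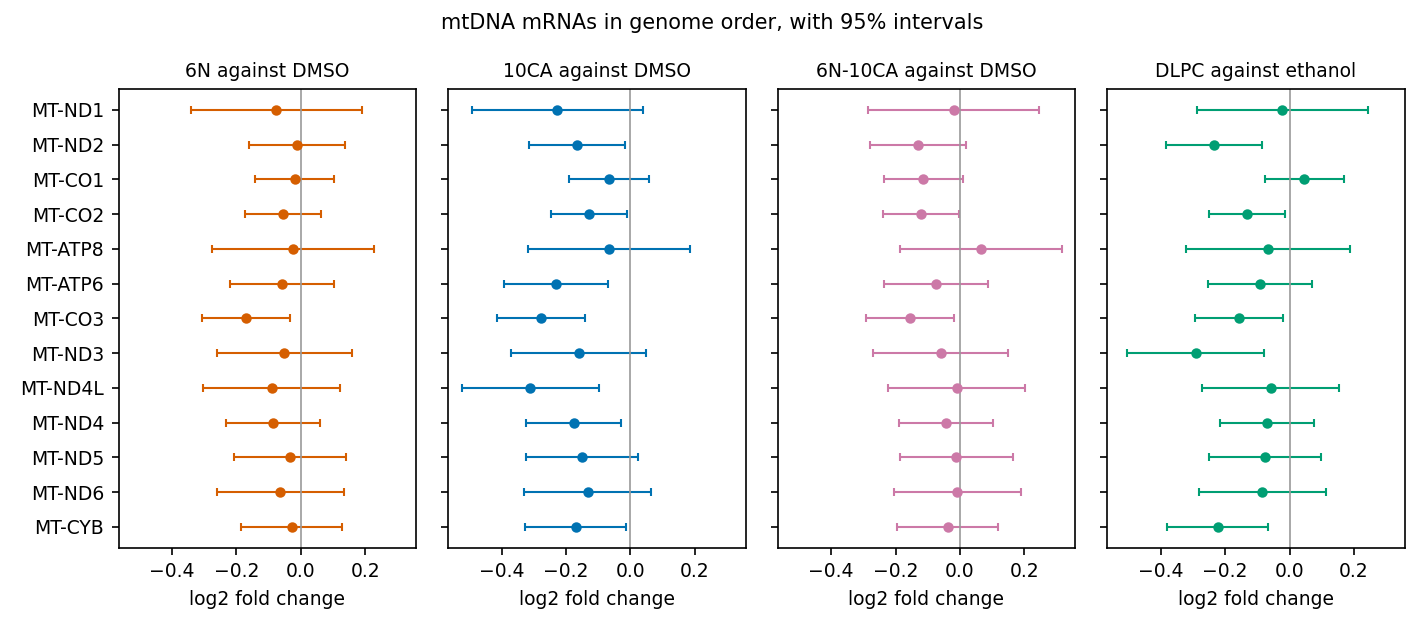
Log2 fold changes of the 13 mitochondrial mRNAs (points) with 95% intervals (bars) from the edgeR fit, in the order of the genes along mitochondrial DNA, for each compound against its vehicle. All 13 points lie below 0 with 6N and with 10CA, and 7 intervals with 10CA and 1 with 6N exclude 0; no gene shown passed adjustment over all genes.

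With 6N, the mitochondrial mRNAs differed little from DMSO, with a median log2 fold change of -0.05 and a range of -0.17 (MT-CO3) to -0.01 (MT-ND2); 50.2% of all genes were below 0. The 95% intervals of all 13 lay within 0.5 of 0, as did those of 80 of 84 nuclear members, against 72.8% of all genes. edgeR called 0 of 97 members where it called 1.14% of all genes. DESeq2 and limma-voom called 0 members, against 1.66% and 1.15% of all genes. An unadjusted p under 0.05 was reached by 1 mitochondrial and 3 nuclear members, against 9.35% of all genes. The mitochondrial median was 0.01 without DMSO replicate 1, so its direction rests on that library; the nuclear median of 0.02 was -0.02 without 6N replicate 1. MT-CO3 was at 486, 484 and 519 CPM with 6N, below all 3 DMSO libraries given above (log2 fold change -0.17 ± 0.07, SE; edgeR adjusted p = 0.363).

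Among nuclear members with 6N, 6 were higher and 1 lower without overlap of the groups, against 6.26% and 7.31% of all genes. NDUFA9, a complex I subunit at the junction of its membrane and matrix arms, was at 72.1, 73.3 and 69.8 CPM against 63.3, 68.6 and 60.8 CPM in DMSO. All 3 libraries of 6N were above DMSO, with a log2 fold change of 0.16 ± 0.05 (SE; 95% interval 0.05 to 0.27; edgeR adjusted p = 0.261). UQCRFS1, the Rieske iron-sulphur protein of complex III, was at 184, 179 and 170.5 CPM against 165, 168 and 164 CPM, with a log2 fold change of 0.10 ± 0.04 (SE; edgeR adjusted p = 0.393). COX6B2, the 1 lower member, was at 0.131, 0.101 and 0.226 CPM against 0.319, 0.230 and 0.229 CPM, a handful of counts per library.

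With 6N-10CA, 12 of 13 mitochondrial mRNAs were below 0 against DMSO, by a median log2 fold change of -0.04, and 56 of 84 nuclear members above 0, by a median of 0.02. Of all genes 49.8% were below 0, and the intervals of 73.2% lay within 0.5 of 0, beside those of 13 mitochondrial and 80 nuclear members. edgeR called 0 of 97 members against 0.264% of all genes. DESeq2 and limma-voom called 0 members, against 1.17% and 0.264% of all genes. An unadjusted p under 0.05 was reached by 2 mitochondrial and 5 nuclear members, against 9.91% of all genes. The groups did not overlap for 1 mitochondrial member, lower, and for 7 nuclear members, all higher, against 7.26% and 7.53% of all genes. The mitochondrial median was 0.00 without DMSO replicate 1, and the nuclear median -0.02 without 6N-10CA replicate 1 and -0.01 without DMSO replicate 2.

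The 3 mitochondrial mRNAs of complex IV had log2 fold changes of -0.16 (MT-CO3), -0.12 (MT-CO2) and -0.11 (MT-CO1) with 6N-10CA, while those of complex I, apart from MT-ND2 at -0.13, lay between -0.06 and -0.01. MT-CO3 was at 524, 507 and 475 CPM, again below every DMSO library (adjusted p = 0.43 in edgeR). The comparisons of the 3 small molecules share their DMSO libraries, so that MT-CO3 lying below them each time is not 3 separate observations. NDUFS4, an accessory subunit that completes complex I, was at 43.7, 39.8 and 42.7 CPM against 38.7, 36.0 and 37.9 CPM (log2 fold change 0.16 ± 0.07, SE; edgeR adjusted p = 0.449). NDUFV3, of the NADH-binding module, was at 43.6, 42.7 and 45.0 CPM against 39.3, 38.2 and 42.6 CPM (log2 fold change 0.13 ± 0.06, SE; edgeR adjusted p = 0.454).

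With DLPC, 12 of 13 mitochondrial mRNAs were below 0 against ethanol, by a median log2 fold change of -0.08, where 49.7% of all genes were below 0, but this rested on 1 library. Without ethanol replicate 1, the library with the highest mitochondrial share, the median was 0.02 and the mitochondrial minus the nuclear median 0.03 instead of -0.08. edgeR called 0 of 97 members against 1.04% of all genes. DESeq2 called 1, MT-ND2, against 2.57% of all genes, and limma-voom 0, against 1.03%, so that neither count lies above the background. An unadjusted p under 0.05 was reached by 5 mitochondrial and 4 nuclear members, against 13% of all genes. Intervals lay within 0.5 of 0 for 12 mitochondrial and 81 nuclear members, against 72.2% of all genes. MT-CO1 was on the other side of 0, at 0.05 (95% interval -0.08 to 0.17).

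MT-ND2, of the complex I membrane arm, was at 356, 338 and 315 CPM with DLPC and at 423, 378 and 386 CPM with ethanol. All 3 libraries of DLPC were below ethanol, with a log2 fold change of -0.23 ± 0.07 (SE, 95% interval -0.38 to -0.09). The adjusted p was 0.134 in edgeR and 0.0496 in DESeq2, and 0.000162 in edgeR with the replicate number as a block. Without ethanol replicate 1 the log2 fold change was -0.18. MT-ND3, another subunit of that arm, was at 20.8, 20.02 and 21.1 CPM against 23.2, 24.7 and 27.9 CPM, also without overlap, with a log2 fold change of -0.29 ± 0.10 (SE; edgeR adjusted p = 0.196). For this mRNA the first ethanol library was the lowest of its group, and the log2 fold change without it was -0.35. MT-CYB was at 373, 396 and 343 CPM against 495, 411 and 390.3 CPM, where 1 DLPC library overlapped ethanol, with a log2 fold change of -0.22 ± 0.07 (SE; edgeR adjusted p = 0.181) that was -0.11 without ethanol replicate 1. The groups did not overlap for 2 of 13 mitochondrial members, both lower, against 9.39% of all genes.

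Nuclear members with DLPC had a median log2 fold change of -0.01, which was 0.01 without ethanol replicate 3 and 0.00 without DLPC replicate 2. Of 84, 13 were lower and 2 higher without overlap, against 9.39% and 9.79% of all genes. The lower ones included 8 subunits of complex I and 4 of complex V, with log2 fold changes of -0.06 to -0.17. NDUFA11, an accessory subunit of complex I, was at 191, 176 and 179 CPM against 203, 199 and 209 CPM (log2 fold change -0.17 ± 0.07, SE; edgeR adjusted p = 0.303). NDUFC2, another, was at 176, 180.2 and 183 CPM against 187, 191 and 207 CPM (log2 fold change -0.12 ± 0.04, SE; edgeR adjusted p = 0.232). NDUFS1, the largest iron-sulphur subunit of complex I, was at 186, 174 and 177 CPM against 169.6, 165 and 168 CPM (log2 fold change 0.10 ± 0.04, SE; edgeR adjusted p = 0.275). All 4 subunits of complex II were above 0, by 0.02 to 0.08, and none reached an unadjusted p under 0.05.

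**Figure D4:**
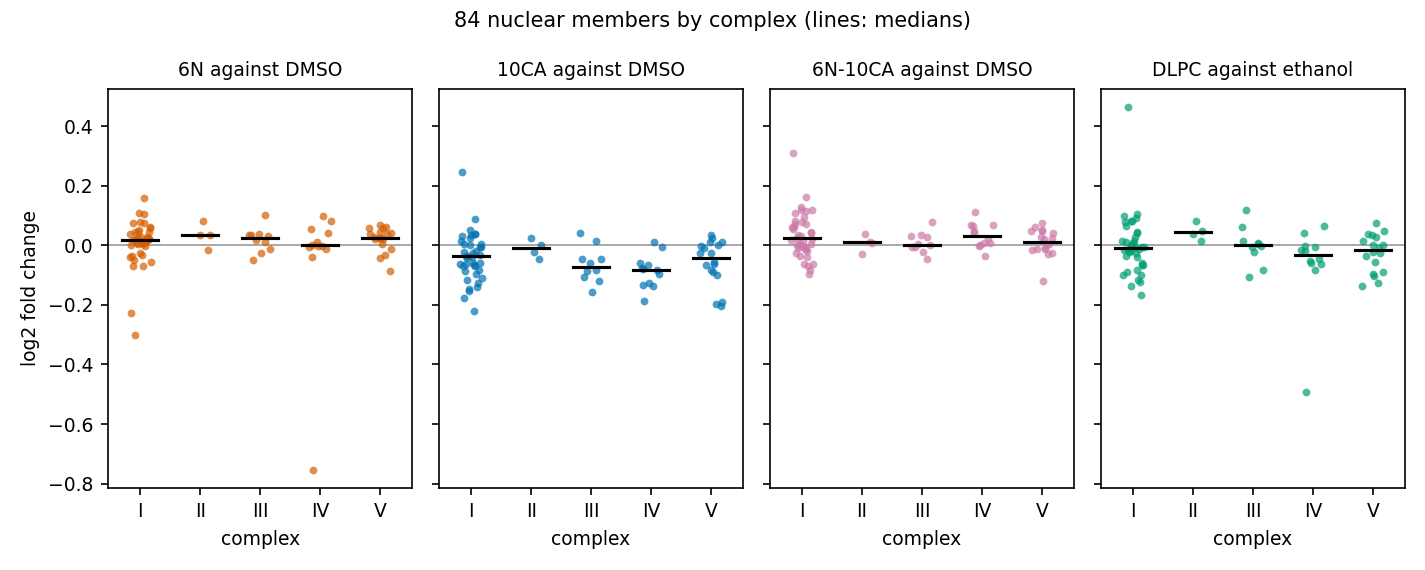
Log2 fold changes of the 84 nuclear members (points) by complex for each compound against its vehicle; horizontal lines are medians. Medians of the complexes lie between -0.08 and 0.04. The point farthest from 0 is COX6B2, at under 1 CPM, with 6N (-0.75) and with DLPC (-0.49). With 10CA (0.25) and with 6N-10CA (0.31) it is NDUFC2-KCTD14, at 11.9 to 17.3 CPM in those libraries.

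The small molecules were also compared with each other at their common dose, in 3 pairs, with p-values adjusted over all genes within each pair. 10CA gave lower values than 6N for all 13 mitochondrial mRNAs (median log2 fold change -0.11) and for 76 of 84 nuclear members (median -0.07), where 48.8% of all genes were below 0. edgeR called 0 of 97 members against 1.71% of all genes, limma-voom 0 against 1.65%, and DESeq2 1 against 3.35%. An unadjusted p under 0.05 was reached by 3 mitochondrial and 14 nuclear members, against 13.9% of all genes. The groups did not overlap for 4 mitochondrial and 6 nuclear members that were lower, against 8.18% of all genes, and for 1 nuclear member that was higher, against 8.54%. The intervals lay within 0.5 of 0 for all 13 mitochondrial and 80 nuclear members, against 72.4% of all genes. The sets lay close to each other, with a mitochondrial minus nuclear median of -0.04 that was 0.03 without 6N replicate 3. The nuclear median was -0.03 without 6N replicate 1, and -0.11 without 6N replicate 3 or 10CA replicate 1; the mitochondrial median was -0.18 without 10CA replicate 1. Of the 9 tested stromal, endothelial and blood cell markers, 6 were above 0 (median log2 fold change 0.14) and edgeR called 2 higher: LYZ, at 319 against 256 CPM (0.32, adjusted p = 0.0294), and PDGFRB, at 9.55 against 6.20 CPM (0.62, adjusted p = 0.0449). The sum of all 17 was 450.5 to 495 CPM with 10CA and 399.9 to 433 CPM with 6N, and its part in this comparison was not tested.

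The member that DESeq2 called between 10CA and 6N was NDUFC2-KCTD14, a read-through of the complex I gene NDUFC2 into its neighbour, whose reads cannot be fully told from those of NDUFC2. It was at 13.8, 16.004 and 14.7 CPM with 10CA and at 13.3, 9.23 and 9.55 CPM with 6N (log2 fold change 0.47 ± 0.14, SE; adjusted p = 0.103 in edgeR and 0.0337 in DESeq2). NDUFC2 itself was at 191, 191 and 190.2 CPM with 10CA and at 205, 191 and 190.5 CPM with 6N. NDUFS6, a zinc-binding subunit of complex I, was at 80.1, 71.2 and 72.5 CPM against 85.5, 83.3 and 78.8 CPM (log2 fold change -0.15 ± 0.05, SE; edgeR adjusted p = 0.156). ATP5G1, which encodes the c-ring subunit of complex V, was at 176, 178 and 178 CPM against 209, 212 and 173 CPM (log2 fold change -0.16 ± 0.06, SE; edgeR adjusted p = 0.192). It was called without 6N replicate 3, the library that overlapped 10CA, at an adjusted p of 0.00327 in edgeR. NDUFA2 and NDUFB8, both of complex I, had log2 fold changes of -0.15 and -0.14.

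6N-10CA differed from 6N by little in both sets, with a mitochondrial median log2 fold change of 0.02 and a nuclear median of -0.01; 6 mitochondrial and 45 nuclear members, and 48.7% of all genes, were below 0. The mitochondrial median was -0.04 without 6N-10CA replicate 1 and -0.01 without 6N replicate 2. The nuclear median was 0.04 without 6N replicate 1 and 0.02 without 6N-10CA replicate 2. edgeR called 0 of 97 members against 1.64% of all genes and limma-voom 0 against 1.58%. DESeq2 called 1, again NDUFC2-KCTD14, against 3.39% of all genes. An unadjusted p under 0.05 was reached by 0 mitochondrial and 4 nuclear members, against 14.4% of all genes. NDUFC2-KCTD14 was at 17.2, 17.3 and 11.9 CPM with 6N-10CA (log2 fold change 0.54 ± 0.14, SE; adjusted p = 0.0641 in edgeR and 0.0119 in DESeq2). The groups overlapped in the third library of 6N-10CA, and edgeR called the gene without that library or without 6N replicate 1, at adjusted p of 0.0087 and 0.0105. ATP5G1, named here after its values were seen, was called by edgeR without 6N replicate 3, a library that both comparisons share. COX7A2L, a factor that joins complexes III and IV into supercomplexes and not a subunit of the isolated enzyme, was at 107, 112 and 108 CPM against 117, 123 and 119 CPM (log2 fold change -0.13 ± 0.05, SE; edgeR adjusted p = 0.159), without overlap. That made it the 1 lower nuclear member without overlap, beside 1 higher (NDUFS4), against 8.66% and 9.03% of all genes. Intervals lay within 0.5 of 0 for 13 mitochondrial and 80 nuclear members, against 71.7% of all genes.

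6N-10CA gave higher values than 10CA for 12 of 13 mitochondrial mRNAs (median log2 fold change 0.13) and 75 of 84 nuclear members (median 0.07), where 50.8% of all genes were below 0. Intervals lay within 0.5 of 0 for 12 mitochondrial and 80 nuclear members, against 73% of all genes. edgeR called 0 of 97 members against 0.23% of all genes. DESeq2 and limma-voom called 0 members, against 0.804% and 0.27% of all genes. An unadjusted p under 0.05 was reached by 1 mitochondrial and 7 nuclear members, against 8.4% of all genes. The groups did not overlap for 1 mitochondrial and 9 nuclear members that were higher, against 6.51% of all genes, and for 0 that were lower, against 5.99%. Without 6N-10CA replicate 1 the medians were 0.08 and 0.04. MT-ND4L, at 81.1, 67.6 and 72.7 CPM with 6N-10CA, had a log2 fold change of 0.30 ± 0.10 (SE; edgeR adjusted p = 0.367). ATP5I, of the complex V membrane sector, was at 95.6, 74.2 and 83.6 CPM against 80.2, 63.6 and 72.2 CPM (log2 fold change 0.23 ± 0.10, SE; edgeR adjusted p = 0.569). COX7B and ATP5G2 had log2 fold changes of 0.14 and 0.11, each without overlap. The 3 pairs share libraries, and the values for 10CA enter both this comparison and that with 6N.

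Between the vehicles, edgeR called 0 of 97 members and 0% of all genes, and 0 members reached an unadjusted p under 0.05 against 3.24% of all genes. DESeq2 and limma-voom called 0 members, against 0.0879% and 0% of all genes. The mitochondrial median of ethanol against DMSO was 0.04, and -0.05 without ethanol replicate 1. Of all genes 49.7% were below 0 and 74.6% had an interval within 0.5 of 0, beside 13 mitochondrial and 81 nuclear members. The nuclear median was -0.00, with 1 member higher and 2 lower without overlap, against 4.06% and 4.19% of all genes. UQCRB and NDUFA2 had the smallest p of the nuclear members, each with a log2 fold change of -0.10.

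**Figure D5:**
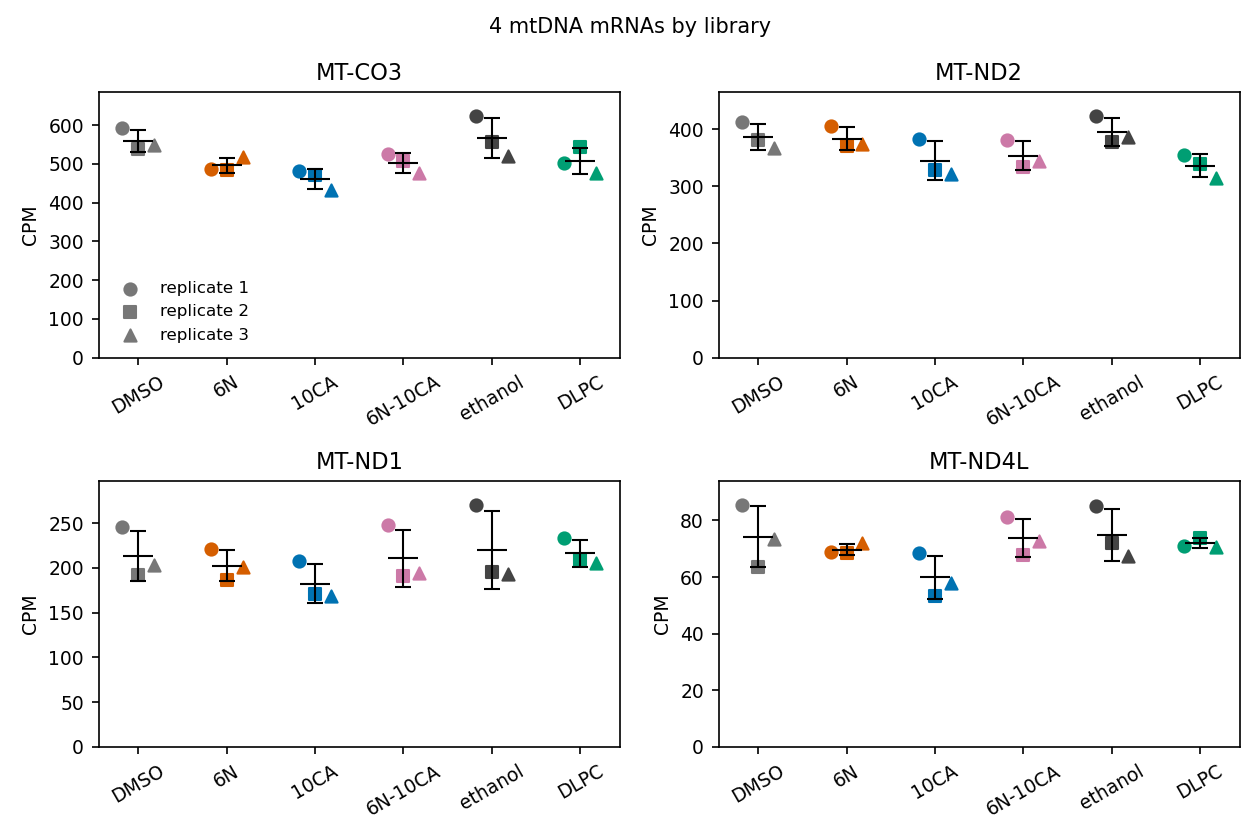
CPM of 4 mitochondrial mRNAs in each of the 18 libraries by group; symbols mark the replicate number, and bars are the mean and SD of 3 libraries. MT-CO3 with 10CA lies between 432 and 480.5 CPM, below every DMSO library, and MT-ND1 is highest in the library numbered 1 of every group.

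Genes around the respiratory chain were read from lists chosen with earlier results of these data known. Of 31 tested genes for mitochondrial transcription and RNA upkeep, 47 assembly factors and 14 regulators of mitochondrial biogenesis, edgeR called 0 in each of the 8 comparisons. With 10CA, where the mitochondrial mRNAs were lowest, unadjusted p under 0.05 was reached by 2, 5 and 1 of these, against 6.98% of all genes. LRPPRC, which stabilises mitochondrial mRNAs, was at 308 ± 14 CPM with 10CA and 267 ± 9.4 CPM with DMSO (SD, n = 3; log2 fold change 0.21, edgeR adjusted p = 0.573). NUBPL, an assembly factor of complex I, and PRKAA1, a catalytic subunit of the energy sensor AMPK, had log2 fold changes of 0.20 and 0.21 (edgeR adjusted p of 0.644 and 0.665). The polymerase POLRMT and the packaging factor TFAM had log2 fold changes of -0.03 and 0.04 with 10CA.

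Mitochondrial ribosomal proteins, which make up the ribosome that translates the 13 mRNAs, were above 0 for 70 of 78 genes with 6N, by a median log2 fold change of 0.05, where 50.2% of all genes were below 0. edgeR called 0 of them, against 1.14% of all genes, and 12 were at an unadjusted p under 0.05, against 9.35%. In 10CA against 6N, 71 of 78 were below 0 (median -0.07), against 48.8% of all genes, and 3 were called lower, where 1.71% of all genes were called in either direction: MRPL27 by -0.19, MRPS25 by -0.18 and MRPS34 by -0.17 (edgeR adjusted p of 0.0265, 0.0467 and 0.0434). MRPS34 and MRPS26 were also called lower in 6N-10CA against 6N, by -0.19 and -0.18 (edgeR adjusted p of 0.0191 and 0.0274), where 1.64% of all genes were called.

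Among 10 tested genes for cytochrome c and inner-membrane carriers, UCP2, a carrier of that membrane, was the 1 called. edgeR called 1.14% of all genes with 6N, 1.04% with DLPC, 1.71% in 10CA against 6N and 1.64% in 6N-10CA against 6N. It fell with 6N, from 56.3 to 44.4 CPM (log2 fold change -0.34, edgeR adjusted p = 0.00545), and rose with DLPC, from 60.2 to 80.1 CPM (0.41, edgeR adjusted p = 0.00212). TRIB3, of 19 tested stress-response genes, fell with 6N, from 369 to 312 CPM (-0.24, edgeR adjusted p = 0.00787). Of 20 citric acid cycle and pyruvate dehydrogenase genes, PDK1, an inhibitory kinase of pyruvate dehydrogenase, was higher with 6N-10CA than with 6N, at 135 against 107 CPM (0.33, edgeR adjusted p = 0.0173). UCP2 and TRIB3 were also higher in both 10CA and 6N-10CA than in 6N, with edgeR adjusted p between 3.01e-05 and 0.00593.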

How the data were processed

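Counts per gene symbol from the 18 libraries were used as the authors deposited them, as raw whole-number counts in 1 table of 35238 gene rows. Per the labels, libraries came from amplified cDNA by the Nextera XT kit, with single-end reads of 100 bases. The strand is not stated, so reads of a gene and of an antisense or overlapping partner cannot be told apart. The submitters' processing notes name GRCh38 and DESeq2; the aligner, the counter and the annotation are each not given in the sources used here. Spreadsheet dates replaced 28 symbols, which are not named.

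edgeR 4.0.16 (R 4.3.3) fitted all 18 libraries with 1 mean per group, TMM scaling and filterByExpr (minimum count 10, minimum total 15), and its quasi-likelihood test was adjusted by Benjamini-Hochberg over 14797 genes at 0.05. The test was checked on simulated counts. DESeq2 1.42.0 and limma-voom (limma 3.58.1) were alternatives; a gene with no adjusted p in DESeq2 counts as not called in its shares of all genes. CPM are counts scaled by TMM library size; set scores use log2 CPM with a prior count of 2. Groups do not overlap where every library of 1 lies beyond every library of the other. Total counts of 28135967 to 34992442 limit the precision; amplified reads are not independent molecules. Small molecules were set against DMSO, and DLPC against ethanol; this pairing is known from outside the labels. Each replicate pair within a group differed by more than sampling noise (chi-square of 4.61 to 14.2 per gene, against about 1 for noise).

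All 13 mitochondrial mRNAs are named; of the nuclear members, those called by edgeR with or without a term for the replicate number, and otherwise the 2 with the smallest p; for levels, the highest and lowest of each complex; of other lists, the called genes, except 1 that is not reported here, and else, for 10CA, that with the smallest p. POLRMT, TFAM, COX6B2 with 6N and the members without overlap were named after their values were seen. Members and lists were chosen with earlier results of these data known. Positions and lengths come from GENCODE 29, promoters from RefSeq. The mitochondrial rRNA genes were not analysed here.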

Additional observations from a re-analysis of the deposited data

How the results depend on the processing

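Called members were 0 of 97 with DESeq2's size factors, library size alone, scaling from genes outside mitochondrial DNA, only the groups compared, the other vehicle and limma-voom, in every comparison where each was run. DESeq2 called 1 member each in 10CA against DMSO, DLPC against ethanol, 10CA against 6N and 6N-10CA against 6N. Without a filter on low counts, edgeR called 2 in DLPC against ethanol (MT-ND2 and MT-CYB) and 1 each in 10CA against DMSO (MT-CO3), 10CA against 6N, 6N-10CA against 6N and 6N-10CA against 10CA. With at least 5 CPM in 3 libraries it called 1 in 6N-10CA against 6N, beside 268 of 10933 genes. The calls over all genes without the filter, out of 24982 tested, are given below. Leaving out 1 library at a time gave 0 to 1 called in 10CA against 6N, beside 141 to 338 of 15018 to 15031 genes. It gave 0 to 1 in 6N-10CA against 6N, beside 138 to 235 of 15016 to 15030 genes, and 0 to 0 elsewhere. The median of the mitochondrial set then ran from -0.146 to 0.0236 in DLPC against ethanol and from -0.0550 to 0.0962 in ethanol against DMSO, and the difference between the sets from -0.153 to 0.0317 and from -0.0474 to 0.122; the positive end of the first and the negative end of the second came without ethanol replicate 1. The cause of these changes was not tested. In all, 122 of 124 mitochondrial medians, 122 of 124 differences and 124 of 124 nuclear medians moved by less than the spread between replicates. That spread was 0.0868, 0.0821 and 0.0547 on the log2 scale for the 3 measures. It is larger than most of the medians and differences, so these counts cannot show that a direction held. The nuclear median with 6N, for instance, ran from -0.0221 to 0.0526 and counts as staying. Of 1936 values of named genes, 1813 kept their sign and their side of the threshold. Another 88 named values, none of them called, changed sign, and 35 that were not called became called with the same direction.

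With the replicate number as a block, edgeR called 1 member with 6N (NDUFA9), 2 with 10CA (MT-CO3 and MT-ND2), 1 with 6N-10CA (MT-ND2) and 4 with DLPC (MT-ND2, MT-CYB, MT-ND3 and NDUFA11), each against its vehicle, 6 in 10CA against 6N, 3 in 6N-10CA against 6N, 3 in 6N-10CA against 10CA and 0 in ethanol against DMSO. Over all genes the block moved the calls from 169 to 551 with 6N, from 0 to 32 with 10CA, from 39 to 562 with 6N-10CA, from 154 to 997 with DLPC, from 253 to 1133 in 10CA against 6N, from 242 to 1231 in 6N-10CA against 6N, from 34 to 349 in 6N-10CA against 10CA and from 0 to 18 in ethanol against DMSO. MT-ND2 was also among those called with the block in 10CA against 6N and in 6N-10CA against 6N. Its log2 fold changes there were -0.16 and -0.12 (edgeR adjusted p of 0.00444 and 0.0283). The labels do not say what a number marks. Deviations of same-numbered libraries of different groups correlated by 0.00361 to 0.182 (median 0.071), with 15 of 45 pairs over 0.1. Those of other-numbered libraries correlated by -0.202 to 0.0557 (median -0.037), with 0 of 90 pairs over 0.1. All 18 libraries correlated best with their own number. The block lowered the common coefficient of variation between replicates from 6.96% to 4.42%. The rule used for pairing, every same-number pair over 0.1, was not met, so the main fit has no block. Libraries of 1 number therefore do share variation, which the main fit leaves in its spread. Leaving genes under the filter in also moved the counts over all genes, from 0 to 20 with 10CA, 39 to 126 with 6N-10CA, 154 to 329 with DLPC, 253 to 423 in 10CA against 6N, 242 to 403 in 6N-10CA against 6N, 34 to 154 in 6N-10CA against 10CA and 0 to 37 in ethanol against DMSO. DESeq2 called 13 genes with 10CA, 173 with 6N-10CA, 380 with DLPC, 496 in 10CA against 6N, 501 in 6N-10CA against 6N, 119 in 6N-10CA against 10CA and 13 in ethanol against DMSO. Fitting only the groups compared gave 13 with 6N-10CA, 112 in 10CA against 6N, 109 in 6N-10CA against 6N and 10 in 6N-10CA against 10CA. Depth limits COX6B2 and UQCRHL, at under 1 CPM.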

Other observations

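MT-ND1, which encodes a core subunit of complex I, was highest in the library numbered 1 of all 6 groups. It stood at 245, 221, 208, 248, 269.9 and 234 CPM in the first libraries of DMSO, 6N, 10CA, 6N-10CA, ethanol and DLPC, and between 168 and 209 CPM in the other 12. In a fit with terms for group and number, chosen after these values were seen, MT-ND1 was higher in the libraries numbered 1 than in the others by 0.30 ± 0.03 on the log2 scale (SE; edgeR adjusted p = 5.03e-07). MT-ND6, MT-ND4L, MT-ND2 and MT-ND5 were higher by 0.19, 0.18, 0.16 and 0.15, and MT-ATP6 and MT-CO2 by 0.12 and 0.07, all called. MT-CO1 and MT-ATP8, at 0.02 and -0.01, were not. Of the nuclear members 32 were called higher and 2 lower, beside 22.48% of all 14797 genes called in either direction.

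Rows named for nuclear homologues of the mitochondrial 16S rRNA gene, a list added after the table was seen, took 0.228% to 0.279% of all counts. MTRNR2L12 had more counts than MT-CO1, the most counted mitochondrial mRNA, at 1154 to 1390 CPM against 721 to 961 CPM; these levels are not per length. Its sequence on chromosome 3 is 95.1% identical to MT-RNR2 over the aligned bases. Of the 13 listed, 8 were tested and edgeR called 0 in each comparison, with at most 1 at an unadjusted p under 0.05. With 10CA the list took 0.252% ± 0.012 of counts and with DMSO 0.254% ± 0.022 (SD, n = 3), and 7 of 8 were below 0 with a median log2 fold change of -0.05, beside -0.17 for the 13 mRNAs.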
